A study of Sus scrofa with 8 samples.

Results

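Peaks of N6-methyladenosine (m6A) that began at base 1 of the transcript and were annotated as coding sequence were collected from 4 deposited peak lists of pig muscle. The members were taken from genes with 3 or fewer peaks in every list that held the gene, because 2 of the lists describe no more than 3 peaks of a gene. This gave 1142 peaks in 525 genes, out of 13510 coding peaks in 4160 genes that met the same limit, or 8.45% of those coding peaks. A further 518 genes with more than 3 peaks in a list were not considered. The lists came from 2 Jinhua males, a Chinese breed with more intramuscular fat, and 2 Landrace males, a Danish breed, all 180 days old. Each animal gave 1 m6A immunoprecipitation (IP) library and 1 input library, 8 samples in all, and each list was made for 1 animal. The animals carried no stated treatment or engineered allele. The lists hold no read counts or enrichment, so depth is unknown and a missing peak and low expression cannot be told apart. With 2 animals per breed, p-values measure only the spread between these animals. In bulk muscle, fewer cells of a type and less RNA per cell cannot be told apart.

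m6A is added to mRNA by a nuclear writer complex containing METTL3 and METTL14, and is bound by reader proteins of the YTH family. It is best known near stop codons and in long internal exons. In the 5' UTR it has been linked to cap-independent initiation of translation. Antibodies against m6A also bind m6Am, a related mark on the first transcribed base next to the cap, so a peak at the 5' end of a transcript can hold either mark. A transcript model that lacks its true 5' UTR begins inside the coding sequence, and a peak can then begin at base 1 without lying at the real 5' end of the mRNA.

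Base 1 held far more coding peaks than any neighbouring base. Against the 1142 peaks at base 1, the next 9 bases together held 139, with 9 to 27 at each base. Bases 2 to 50 held 970 coding peaks, a mean of 19.8 per base. Small rises lay at base 11 with 56 peaks, at base 21 with 41 and at base 31 with 54. In each list the base-1 peaks numbered 273 in Jinhua 1, 291 in Jinhua 2, 321 in Landrace 1 and 257 in Landrace 2. The rise at base 1 was not particular to coding peaks. Peaks labelled 5' UTR numbered 247 at base 1, 3 at base 2 and 27 at base 41, the most at any of bases 2 to 50. No list gives a position before base 1, and how the caller treated peaks cut off by the start of a transcript model was not tested.

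**Figure D1:**
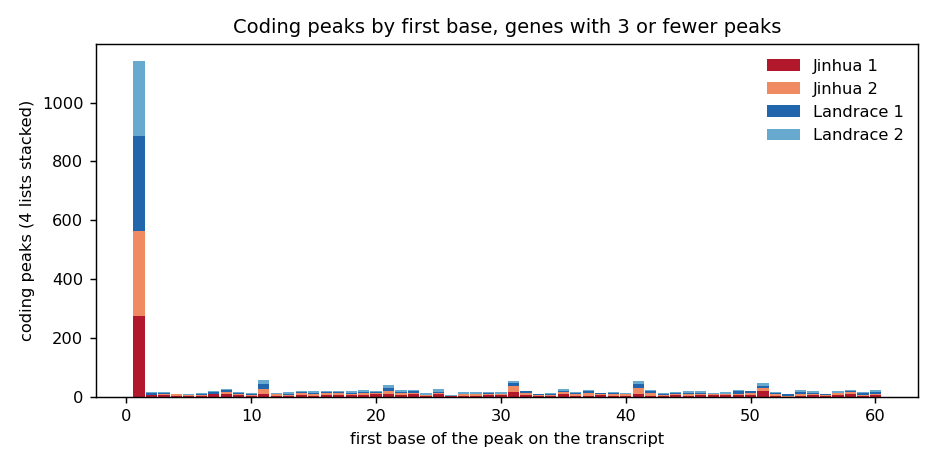
Number of coding peaks (vertical axis) by the first base of the peak on its transcript (horizontal axis, bases 1 to 60), with the 4 animals stacked. Base 1 holds 1142 peaks, while no base between 2 and 50 holds more than 56.

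The positions lay partly on a grid of 10 bases. Among the other coding peaks 40.1% started 1 base past a multiple of 10 and 42.9% ended at a multiple of 10. Base 1 is the first position of this grid. Among the base-1 coding peaks 46.9% ended at a multiple of 10, but among the 862 that ended beyond base 100 the share was 29.7%. Of all 1142, 280 (24.5%) ended at base 100, which is the smallest width found in any list, 52 ended at base 110 and 50 at base 120.

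Base-1 coding peaks were shorter than other coding peaks in every animal. Their median width was 123 bases in Jinhua 1, 122 in Jinhua 2, 120 in Landrace 1 and 124 in Landrace 2. Other coding peaks of the same animals had medians of 158, 156, 157 and 156 bases, in the same order. The mean difference was -34.5 bases ± 2.08 (SD, n = 4 animals), in the same direction in 4 of 4 animals (exact sign-flip permutation p = 0.125, two-sided, the smallest this design allows). Against other coding peaks that started on the 10-base grid it was -17.8 bases. Peaks of the minimum width made up 24.5% ± 1.86 of base-1 coding peaks and 9.51% ± 0.583 of other coding peaks (SD over 4 animals, exact sign-flip permutation p = 0.125, two-sided). Only 47 base-1 peaks (4.12%) reached 200 bases or more. Coding peaks just outside the rule, starting at base 2 to 50, had medians of 156, 154, 156 and 156 bases. The rule fixes the first base at the edge of the transcript model, where a peak cannot reach further upstream. The rule may thus bear on the width itself, and the difference cannot be read apart from it.

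**Figure D2:**
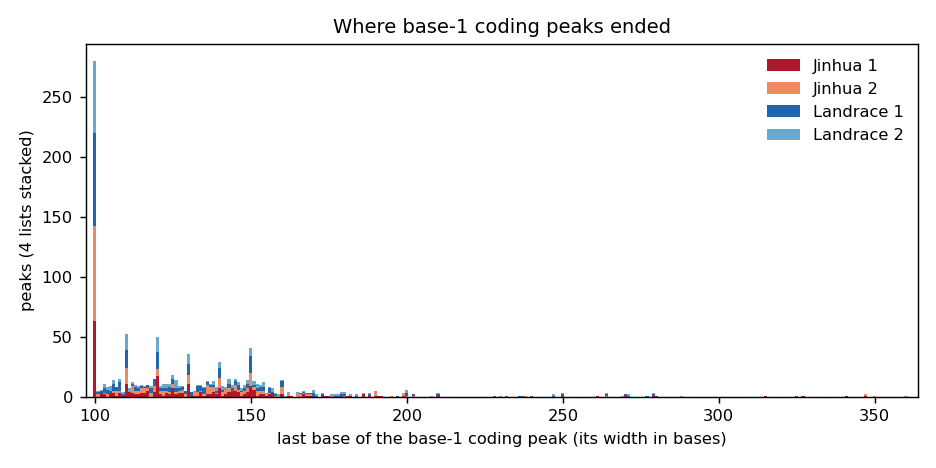
Number of base-1 coding peaks (vertical axis) by their last base, which is also their width in bases (horizontal axis), with the 4 animals stacked. The tallest column, 280 peaks, stands at base 100, and smaller ones stand at 110, 120, 130, 140 and 150.

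The coding label of these peaks was found to follow their last base. In 368 genes the lists held both a peak labelled 5' UTR and a peak labelled coding. Ordered by last base, no coding peak ended at or before a 5' UTR peak of the same transcript (0 of 368 genes out of order). Ordered by first base, 48 of the 368 genes were out of order, and ordered by the middle of the peak, 4 were. At the other end of the coding sequence, between coding and 3' UTR peaks, 0 of 916 genes were out of order by last base, 67 by first base and 11 by middle. A coding label at base 1 therefore says that the peak ended within the coding sequence, and does not say that the transcript model lacks a 5' UTR. Under that reading the 5' UTR of a member can be no longer than its smallest peak end minus 1. This limit had a median of 115 bases over the 525 genes and was 99 bases in 162 of them (30.9%).

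Direct signs of an annotated 5' UTR were found in 12 of the 525 genes (2.29%), against 356 of 3635 genes (9.79%) whose coding peaks all began later. The rule itself bears on this contrast, since the 5' UTR of a member is limited as above and no peak was shorter than 100 bases, while the other genes have no such limit, so nothing is read from it. In 11 of the 12 a base-1 peak was labelled 5' UTR in one list and coding in another. In all 11, every coding peak reached further than every 5' UTR peak. LDHA, the muscle subunit of lactate dehydrogenase (ENSSSCG00000013366), is an example chosen after its values were seen. Its base-1 peak ended at base 114 in Jinhua 1 and 119 in Jinhua 2, both labelled coding, and at base 100 in both Landrace lists, labelled 5' UTR. All 4 animals thus had a peak at base 1 of LDHA, although the label separated the breeds. ATP6V0C, a membrane subunit of the proton-pumping vacuolar ATPase, had coding peaks ending at bases 149, 152 and 143 in Jinhua 1, Jinhua 2 and Landrace 2, and a 5' UTR peak ending at base 141 in Landrace 1. For H3F3B, a gene of the replacement histone H3.3, the coding peaks ended at bases 199, 199 and 202 in Jinhua 1, Jinhua 2 and Landrace 1, and the 5' UTR peak at base 127 in Landrace 2. Others of this kind included ARCN1 and ARL2BP, which serve vesicle coats and small GTPases, DHRS11, a dehydrogenase, and JUP, the junctional protein plakoglobin.

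Over all peaks that began at base 1, whatever their label, coding sequence was the most frequent part. Of 1410 such peaks 1142 (81.0%) were labelled coding and 247 were labelled 5' UTR. Over all 19455 peaks of genes within the same limit, 13510 were labelled coding. Where the label follows the last base, a base-1 peak is labelled 5' UTR only if it ended within the 5' UTR. No peak was shorter than 100 bases, so the labelling and the smallest width bear on this share. Another 21 were labelled UTR without a side. The coding share was 82.2% in Jinhua 1 and 82.4% in Jinhua 2, against 80.2% in Landrace 1 and 79.1% in Landrace 2, a difference of 2.67 percentage points between breed means (exact permutation p = 0.333, two-sided, the smallest that 2 animals against 2 allow). Among 336 base-1 peaks that ended at base 100, 280 (83.3%) were labelled coding. The share was 78.7% for ends at bases 101 to 150 and 85.7% for ends from base 151 on, so it did not rise steadily with the last base.

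Member genes were named less often than other genes with coding peaks. Of the 525 genes 87 had no symbol in the lists or in the gene name table, 16.6% (95% Wilson interval 13.6 to 19.99), against 435 of 3635 (11.97%, 10.95 to 13.1) among genes whose coding peaks all began later. The identifier was missing from the gene name table for 197 member genes, 37.5% (33.5 to 41.7), against 28.0% (26.6 to 29.5). Among the 115 member genes with the peak in all 4 lists, 23 had no symbol. Genes whose base-1 peaks were labelled 5' UTR only had no symbol in 12 of 118 cases (10.17%, 5.91 to 16.9). The intervals cover counting error only and treat genes as independent.

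Of the 525 genes, 115 (21.9%) had the base-1 coding peak in all 4 lists, 83 in 3, 106 in 2 and 221 (42.1%) in 1. Counting any peak that overlapped or adjoined it, the site was called in all 4 animals in 197 genes (37.5%), against 1382 of 5435 other coding regions (25.4%) and 26% of all 8294 merged regions in these genes. It was called in 1 animal alone in 146 genes (27.8%), where the share over all regions was 40.4%. A site called in more animals had more chances to begin at base 1 in one of them, so these shares are not a fair comparison. Within a single list that choice does not arise.

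Taken list by list, a base-1 coding peak was overlapped by a peak in all 3 other lists in 53.5% of cases in Jinhua 1, 48.5% in Jinhua 2, 55.5% in Landrace 1 and 61.9% in Landrace 2. For other coding peaks the shares were 46.9%, 36.9%, 46.2% and 48.2%. The mean difference was 10.3 percentage points ± 3.02 (SD, n = 4 animals), with base-1 peaks higher in 4 of 4 animals (exact sign-flip permutation p = 0.125, two-sided). Against other coding peaks that started on the 10-base grid the difference was 24.9 points, and in genes with 1 peak in each list it was 16.6 points. The lists overlap each other, so the animals are not fully independent in this comparison. Coding peaks that started at base 2 to 50 were overlapped in all 3 other lists in 53.2%, 51.1%, 61.0% and 65.7% of cases, and against them the difference turned to -2.92 points (exact sign-flip permutation p = 0.25). More overlap than in all other coding peaks was thus also found for coding peaks that began shortly after base 1.

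**Figure D3:**
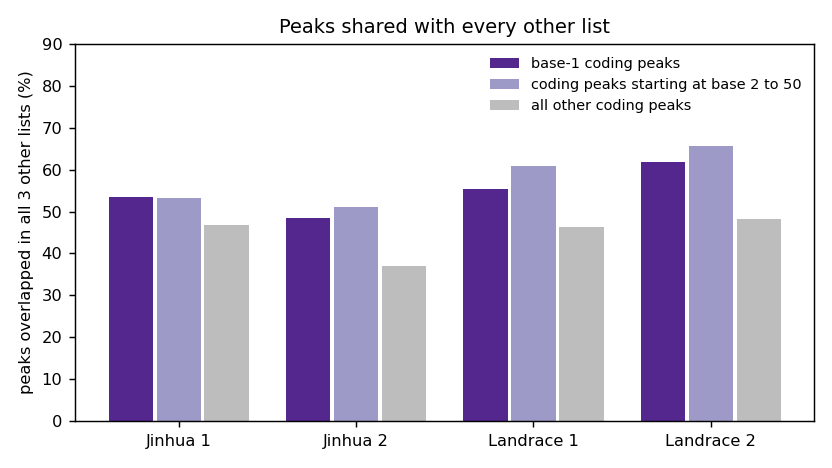
Percentage of peaks of each animal that were overlapped by a peak in all 3 other lists, for base-1 coding peaks, coding peaks starting at base 2 to 50, and all other coding peaks. The base-1 bars stand between 48.5% and 61.9% and above the bars of all other coding peaks in each animal, but not above those of peaks starting at base 2 to 50 in 3 of the 4.

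Among the 115 genes shared by all lists, the peak ended at nearly the same base in many. The 4 ends spanned a median of 11 bases, and in 56 genes (48.7%) they lay within 10 bases of each other. Of the 115, 20 had all 4 ends at base 100, the minimum width. Among the 95 genes with an end beyond base 100 the median span was 16 bases, and 36 (37.9%) lay within 10 bases. For 1029 other coding regions with 1 peak in each list, the ends spanned a median of 24 bases and 27.9% lay within 10 bases. The first bases of those regions spanned a median of 23 bases, whereas the rule gives every base-1 peak the same first base. The sets are therefore not alike, and nothing is read from this contrast.

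RPS25, a protein of the small ribosomal subunit (ENSSSCG00000015103), was the single gene whose 4 peaks ended at one base beyond 100. They covered bases 1 to 125 of ENSSSCT00000016469 in every animal, with no other peak in any list. Among the 20 genes with all 4 peaks at bases 1 to 100 were BRK1, which takes part in actin branching, and CLU, the extracellular chaperone clusterin. They also included GET4, HNRNPA3, an RNA-binding protein, NID2, a basement membrane protein, and PTDSS1, which makes phosphatidylserine. Others were PDIA3, a disulphide isomerase of the endoplasmic reticulum, PTS, an enzyme of tetrahydrobiopterin synthesis, and RPS27 of the small ribosomal subunit. PABPC1, the cytoplasmic poly(A)-binding protein, and PAIP1, which binds it, both belonged to this set. PABPC1 had a further peak in Jinhua 1 alone, at bases 101 to 241, directly after the first. PAIP1 had a further coding peak in every animal, starting between bases 128 and 164. Close copies exist for RPS25, RPS27, HNRNPA3 and PABPC1, and no source used here says how reads were shared among copies.

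Among genes with a symbol, the widest base-1 coding peaks lay in RGS5, HSPB8, BTG2 and GNB2. RGS5, a regulator of G-protein signalling found in pericytes, had a peak over bases 1 to 360 in Jinhua 2 and 1 to 140 in Jinhua 1. In Landrace 1 its peak began at base 128, and in Landrace 2 the gene was not listed. HSPB8, a small heat shock protein of muscle, had 1 peak over bases 1 to 341 in Jinhua 1 and 1 to 350 in Jinhua 2. In Landrace 1 the same stretch held 2 peaks, at bases 1 to 133 and 169 to 338, and in Landrace 2 also 2, at 1 to 132 and 145 to 330. All 4 animals had peaks up to about the same last base, with a stretch between the 2 peaks left uncovered in both Landrace animals. BTG2, an antiproliferative gene, had the peak over bases 1 to 347 in both Jinhua animals and 1 to 279 in both Landrace animals. GNB2, a G-protein beta subunit, had peaks that began at bases 114 and 127 in Jinhua 1 and Jinhua 2, at base 1 in Landrace 1, with an end at 325, and at base 18 in Landrace 2. At the other extreme 280 base-1 coding peaks shared the smallest width. Of their genes, the first 4 by symbol were ABCB6, ABHD14B, ADIPOR2, an adiponectin receptor, and ALDOC, an aldolase. Each had a peak over bases 1 to 100. For ABCB6 this was in Jinhua 1, Jinhua 2 and Landrace 2, and for the other 3 genes in Jinhua 2 alone.

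**Figure D4:**
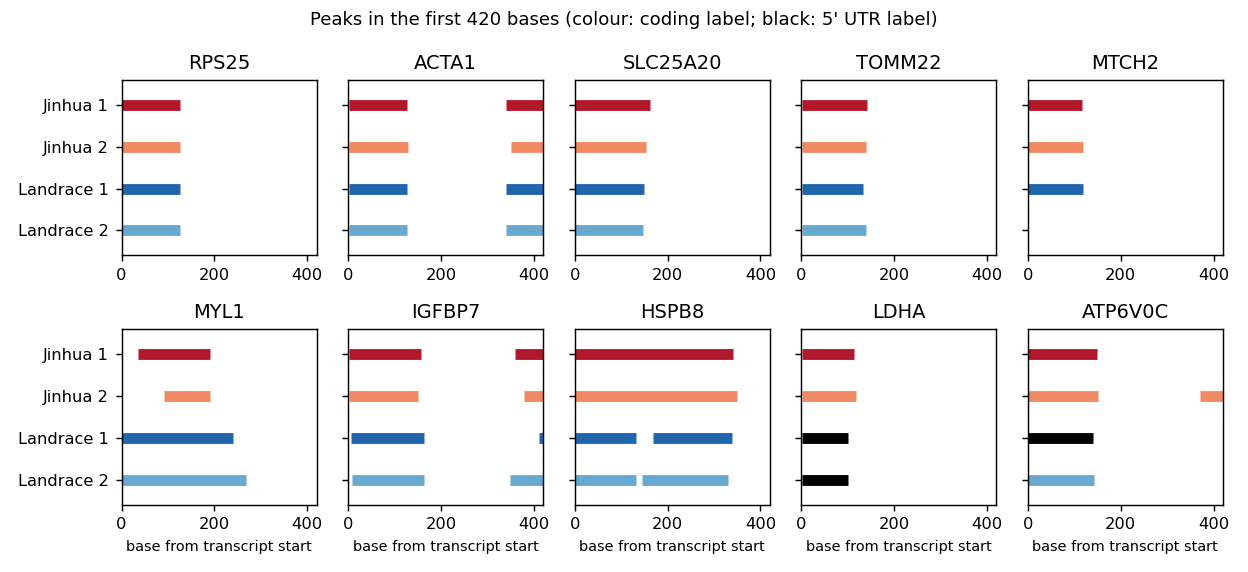
Peaks near the start of 10 transcripts (horizontal axis, bases from the transcript start), with 1 row per animal. Coloured bars carry the coding label and black bars the 5' UTR label. RPS25 ends at base 125 in all 4 rows, MYL1 begins after base 1 in both Jinhua rows and at base 1 in both Landrace rows, and HSPB8 is 1 bar in the Jinhua rows and 2 in the Landrace rows.

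Base-1 coding peaks were counted in 20 gene families. Over all 4160 genes with a coding peak, 12.6% had one at base 1 in some list. The families were defined by symbol with earlier results of these data known, and no family was tested. For the respiratory chain and ATP synthase the count was 16 of 51 genes (31.4%). In single lists it was 25% and 29.3% of this family's genes with a coding peak in Jinhua 1 and Jinhua 2, and 28.2% and 33.3% in Landrace 1 and Landrace 2. The same share over all genes with a coding peak was 10.9%, 9.44%, 12.7% and 10.7% in these lists.

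Of these 16 genes 6 had the peak in all 4 lists. They were the complex I subunits NDUFA4, NDUFA6, NDUFS7 and NDUFV2, the complex III subunit UQCRQ and the ATP synthase subunit ATP5E. UQCRQ ended at bases 128 and 132 in the Jinhua lists and 128 and 130 in the Landrace lists. NDUFA6 ended at 147 and 149 in the Jinhua lists and at 100 in both Landrace lists. NDUFV2 ended at 137 and 138 against 106 and 110 in the same order, and NDUFS7 at 145 and 149 against 210 and 152. NDUFA4 ended at bases 143 and 142 in the Jinhua lists and 120 and 143 in the Landrace lists. ATP5E ended at base 110 in Jinhua 2 and between 149 and 160 in the other 3 lists. Apart from ATP5A1, SDHC and NDUFA9, the members of this family had no second peak in any list.

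The sarcomere list gave 13 of 33 genes (39.4%), with 28.0% and 19.2% in the Jinhua lists and 32.1% and 28.6% in the Landrace lists. ACTA1, skeletal alpha-actin (ENSSSCG00000010190), had the peak in all 4, ending at base 126 of ENSSSCT00000011156 in Jinhua 1 and both Landrace lists and at base 128 in Jinhua 2. ACTN1, a non-muscle alpha-actinin that the symbol pattern also caught, ended at bases 150 and 110 in the Jinhua lists and at 130 in both Landrace lists. TNNI1, the slow troponin I, ended at bases 162 and 150 in the Jinhua lists and 140 in Landrace 1, while in Landrace 2 its peak began at base 6. Several others differed between animals by where the peak began rather than whether one was called. CSRP3, a Z-disc protein, began at base 21 in both Jinhua lists, at base 1 in Landrace 1 and at base 4 in Landrace 2. LDB3, another Z-disc protein, began at base 12 in both Jinhua lists and at base 1 in both Landrace lists. TPM4, a tropomyosin, began at bases 83 and 88 in the Jinhua lists, and at bases 81 and 1 in the Landrace lists.

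Mitochondrial carriers and import proteins gave 7 of 24 genes (29.2%), with 21.4% and 16.7% in the Jinhua lists and 41.2% and 31.2% in the Landrace lists. SLC25A20, the carnitine-acylcarnitine carrier, had the peak in all 4 lists, ending at bases 163 and 154 in the Jinhua lists and 150 and 148 in the Landrace lists. TOMM22, a receptor of the outer membrane translocase, ended at bases 142 and 140 in the Jinhua lists and 134 and 139 in the Landrace lists. MTCH2, the outer membrane protein named in the series title (ENSSSCG00000013232), ended at bases 117 and 119 in the Jinhua lists and 120 in Landrace 1, a span of 3 bases, and was not listed in Landrace 2. Its paralogue MTCH1 began at base 11 in both Jinhua lists, ending at 150 in each, and at base 1 in both Landrace lists, ending at 141 and 165. TOMM6 and TOMM7, small subunits of the same translocase, were not listed in either Jinhua animal and had the peak in both Landrace lists.

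Proteasome genes gave 7 of 27 (25.9%), with 26.1% and 19.0% in the Jinhua lists and 27.8% and 22.2% in the Landrace lists. PSMD7 ended at base 145 in both Jinhua lists and at 140 and 143 in the Landrace lists. PSMC1 and PSMD6 had the peak in all 4 lists too, with ends between bases 100 and 129. Fatty acid oxidation gave 4 of 19 genes, of which SLC25A20 and ACAD8 had the peak in all 4 lists and CPT1B and DECR2 in Landrace 1 alone. ACAD8, an acyl-CoA dehydrogenase of branched-chain breakdown, ended at bases 130 and 140 in the Jinhua lists and 110 and 130 in the Landrace lists. Lipid synthesis, uptake and storage gave 2 of 23 genes, FADS2, a fatty acid desaturase, and CIDEA, a lipid droplet protein called in Landrace 2 alone. By its symbol SLC27A1, with the peak in Jinhua 2 alone, was counted with the solute carriers instead.

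In the other families the share ranged from 3.12% to 19.2%. Cytosolic ribosomal proteins gave 6 of 44 genes, translation factors 5 of 26 (19.2%), with EIF4A3 in all 4 lists and EIF3H in 3, and ubiquitin conjugation, ligation and removal 11 of 95. In the last, ASB5 ended at base 149 in Jinhua 1 and 124 in the other 3 lists, and KLHL40, which stabilises thin filament proteins in muscle, ended at 123 and 121 in the Jinhua lists and 119 and 123 in the Landrace lists. Solute carriers outside SLC25 gave 5 of 35 genes, of which SLC44A1 and SLC5A6 had a peak over bases 1 to 100 in both Jinhua lists and were not listed in Landrace. SLC39A7 ended at base 315 in Jinhua 1 alone. MAP kinases and phosphatases gave 6 of 65, with PPP3CB and PPP5C in all 4 lists and MAPKAPK5 in 3. PPP5C, a serine/threonine phosphatase, ended at base 105 or 106 in every animal.

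Splicing factors and RNA helicases gave 7 of 78 genes, including SNRPF, which ended between bases 125 and 130 in all 4 lists, and SRSF1 in Jinhua 1 and Landrace 1. Extracellular matrix genes gave 3 of 39, where NID2 and TIMP3, an inhibitor of metalloproteinases, ended at base 100 in all 4 lists and ADAMTS1 had the peak in Landrace 1 alone. Chromatin modifiers gave 3 of 42, SMARCD2, DNMT3A and PHF11. Heat shock proteins and chaperones gave 3 of 41, HSPB8 and, in 1 list each, DNAJA4 and CCT3. Other DNA-binding factors gave 4 of 48, among them NR4A1, an early response receptor ending at bases 126 to 136 in all 4 lists, and STAT3 in 3. TMEM genes gave 3 of 30, TMEM219, TMEM245 and TMEM222. Zinc finger and BTB factors gave 2 of 58 (3.45%), ZBTB7A and ZNF385A, and mitochondrial ribosomal proteins 1 of 32 (3.12%), MRPS24. Of 8 m6A writers and readers with a coding peak, RBM15B had one at base 1, in Landrace 1 alone, ending at base 110.

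The number of base-1 coding peaks did not separate the breeds. The mean over animals was 282 ± 12.7 for Jinhua and 289 ± 45.3 for Landrace (± SD over 2 animals per breed; two-sided exact permutation p = 1). As a share of each list's coding peaks it was 8.65% in Jinhua 1 (95% Wilson interval 7.72 to 9.68) and 7.21% in Jinhua 2 (6.45 to 8.05), against 9.94% (8.96 to 11.02) for Landrace 1 and 8.32% (7.39 to 9.34) for Landrace 2. The breed means were 7.93% ± 1.02 and 9.13% ± 1.15, in the same order (± SD over 2 animals per breed; two-sided exact permutation p = 0.667).

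Among coding peaks that began within the first 50 bases, a smaller share began exactly at base 1 in both Jinhua lists, in a comparison chosen with the data in view. The share was 50.6% of 540 peaks in Jinhua 1 and 51.0% of 571 in Jinhua 2, against 60.5% of 531 in Landrace 1 and 54.7% of 470 in Landrace 2. The breed means were 50.8% ± 0.288 and 57.6% ± 4.08 in the same order, a difference of -6.81 percentage points (± SD over 2 animals per breed; two-sided exact permutation p = 0.333, the smallest possible). Without Landrace 1 the difference was -3.92 points. Within the first 20 bases it was -2.95 points (two-sided exact permutation p = 0.667).

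Where a base-1 coding peak of one list was missing from another, the gene was most often not listed at all. This held for 509 of 958 missing cases (53.1%). In 227 cases (23.7%) a peak overlapped the site but began later, at a median of base 20. In 209 cases (21.8%) the gene had peaks elsewhere only, and in 13 a base-1 peak carried another label. The later start was found in 75 genes in Jinhua 1 and 85 in Jinhua 2, against 23 in Landrace 1 and 44 in Landrace 2. As shares of each list's missing cases these were 29.8% and 36.3%, against 11.3% and 16.4%, in the same order. The genes counted were those with a base-1 call in some list. A list with more such calls has fewer missing cases by the rule, and so less room for later starts, which bears on this contrast. Matching shares for other coding peaks were not counted. Genes that were not listed numbered 121 and 90 in the Jinhua lists, against 130 and 168 in the Landrace lists, and the lists themselves held 3863 and 4468 genes in Jinhua against 3798 and 3647 in Landrace.

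**Figure D5:**
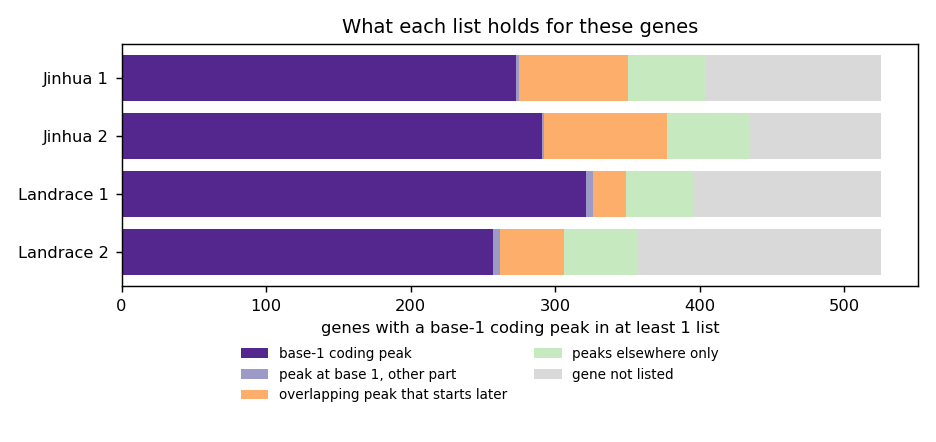
For the 525 genes with a base-1 coding peak in at least 1 list, the number (horizontal axis) in each state, with 1 bar per animal. Peaks that overlap the site but start later number 75 and 85 in the Jinhua bars and 23 and 44 in the Landrace bars. A list with more base-1 coding peaks has fewer cases in the other states by the rule.

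At sites with a peak in all 4 lists, the Jinhua peaks more often ended further along the transcript than the reverse. Over all base-1 coding peaks, shared or not, the breeds did not separate. There the median end was base 123 in Jinhua 1, 122 in Jinhua 2, 120 in Landrace 1 and 124 in Landrace 2. Among the 115 genes with the base-1 peak in all 4 lists, the median end was base 126 in Jinhua 1, 123 in Jinhua 2, 118 in Landrace 1 and 120 in Landrace 2. Both Jinhua ends lay beyond both Landrace ends in 38 genes (33.0%), and before both in 7 (6.09%). The same held for 1029 other coding regions with 1 peak in each list, where both Jinhua ends lay beyond in 37.2% and before in 6.71%. The 20 genes with all 4 ends at base 100, the minimum width, could show no such shift, and the difference between base-1 peaks and other regions was not tested. In those other regions the first bases were shifted as well, with both Jinhua starts later in 28.0% and earlier in 12.7%. Breed and any other difference between the 2 pairs of animals cannot be told apart in this design.

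A base-1 coding peak was called in both Jinhua lists and neither Landrace list for 29 genes, and the reverse for 37. Counted by any overlapping peak, the 525 sites included 30 that were Jinhua-only (5.71%) and 20 that were Landrace-only (3.81%). The corresponding shares over all merged regions were 5.79% and 3.33%, so these counts lie close to the background. Of the 29 Jinhua-only genes 23 had no overlapping peak in Landrace, and 15 had no peak in Landrace at all. Of the 37 Landrace-only genes 13 had no overlapping peak in Jinhua, and 9 had none at all. For the counts by exact start and by whole gene, no matching share over all genes was counted. The lists also differ in length, so nothing is read from the difference between breeds in these counts.

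Of the Jinhua-only genes with the widest peaks, WIPI1, an autophagy protein, and LSG1, a GTPase of ribosome assembly, were not listed in Landrace. WIPI1 ended at bases 153 and 166 in the 2 Jinhua lists, and LSG1 at 154 and 145. IGFBP7, a secreted IGF-binding protein, ended at bases 157 and 150 in the Jinhua lists, but in Landrace its peaks covered bases 7 to 163 and 8 to 163. AEBP2, a cofactor of the Polycomb repressive complex, ended at 154 and 150 in the Jinhua lists, and its first peak in Landrace 1 began at base 186, while Landrace 2 did not list the gene. ARCN1 was labelled 5' UTR in Landrace 2.

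The Landrace-only genes with the widest peaks mostly had a peak nearby in Jinhua. MYL1, the fast myosin light chain, covered bases 35 to 190 in Jinhua 1 and 91 to 190 in Jinhua 2, against 1 to 240 in Landrace 1 and 1 to 269 in Landrace 2. S100A10 began at bases 25 and 54 in the Jinhua lists, and its Landrace peaks both covered bases 1 to 271. PRSS23, a secreted protease, began at bases 31 and 41 in the Jinhua lists. WDR45, an autophagy protein, began at bases 3 and 8 there. STK10 and FADS2 were not listed in Jinhua 1, and in Jinhua 2 their first peaks began at bases 181 and 61.

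Most base-1 coding peaks stood alone, and most genes with other coding peaks likewise had a single peak. In 732 of 1142 cases (64.1%) no other peak of the gene was listed in that animal. The share of genes with a single peak was 63.9% ± 5.48 for genes with a base-1 coding peak and 60.9% ± 1.37 for genes with other coding peaks (SD over 4 animals, higher in 3 of 4, exact sign-flip permutation p = 0.375, two-sided). In 197 genes (37.5%) every listed peak in every animal was a base-1 coding peak, and no matching share was counted for other genes. The other genes carried 1116 further peaks, 496 of them in a list that also held the base-1 peak. Of these 1116 peaks 835 (74.8%) were coding, 266 (23.8%) lay in the 3' UTR and 15 in the 5' UTR. A 3' UTR peak was listed for 97 member genes (18.5%), against 22.5% of genes whose coding peaks all began later.

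The nearest further peak in the same list lay a median of 541 bases after the end of the base-1 peak, with quartiles of 240 and 884 bases. In 13 of 410 cases it adjoined the base-1 peak directly, as in H3F3B. GET4 is an example of a gene that also had a peak labelled 3' UTR in all 4 animals. It began at base 702 in both Jinhua lists and 696 in both Landrace lists. SLC25A20 likewise had a 3' UTR peak in every animal, beginning between bases 949 and 955. CLU and NID2 had a further coding peak in each animal, beginning at bases 361 and 324 in the Jinhua lists and 368 and 361 in the Landrace lists for CLU, and between 1084 and 1119 for NID2.

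Markers of several cell types were looked up in the lists, where a listed peak does not measure how much of a cell type was present. Of 8 skeletal muscle markers 7 were called in all 4 lists. TNNT3 was not found by symbol in any list. ACTA1 and HBB, a haemoglobin chain of blood, were the 2 markers of all types examined that had a base-1 coding peak among the members. A marker with more than 3 peaks in a list could not be a member, whatever its peaks. HBB ended at bases 111 and 113 in the Jinhua lists and 100 and 101 in the Landrace lists, and globin genes have close copies. Of 4 adipocyte markers 3 were listed in some animal, CIDEC and LIPE among them in every animal, and none had a base-1 coding peak. The vessel markers PECAM1 and ENG, COL3A1 of fibroblasts and CSF1R of macrophages were also called in all 4 lists. CD14 of macrophages was called in 2, and COL1A1 of fibroblasts was not found by symbol in any list. Being listed thus did not separate muscle from the other cell types.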

How the data were processed

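Values used here are the positions, part labels and numbers of peaks that the authors deposited, as 1 list per animal. Bead-purified mRNA of the IP samples was broken by sonication and pulled down with an m6A antibody, and libraries were made with a stranded kit, per the labels. TopHat2 2.0.14 is listed as a tool, with susScr3 and Sscrofa10.2 as builds, per the submitters' processing notes. Peak caller, threshold and annotation release: not given in the sources used here. Positions are 1-based on the transcript. No list holds read counts, so depth is unknown, and stricter thresholds could not be tried.

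Peaks were read with Python 3.11.15 and pandas 2.3.3. Overlap meant 1 shared base or more, and regions were merged where peaks overlapped or adjoined. Breeds were compared by exact permutation over animals, and base-1 with other coding peaks by exact sign flips over the 4 animals. Each breed was represented by 2 males. The steps were tested on simulated lists. Symbols came from the lists (4456 genes) or the gene name table (532), and 662 genes had none. In 14 genes a spreadsheet date stood in place of the symbol, and the table's symbol was used where it had one.

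The members, gene families and tests were chosen with earlier results of these data known, and 3 family patterns were corrected after symbols that did not belong had been seen. Named genes were MTCH2, the 12 genes with the closest ends in all 4 lists, and up to 6 Jinhua-only and 6 Landrace-only genes by width. The 4 widest were also named, with 4 of the many tied narrowest, up to 3 per family and up to 6 with a 5' UTR peak. LDHA, MTCH1, HBB and further members of the metabolic, contractile and import families were added to these names once their values were known.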

Additional observations from a re-analysis of the deposited data

How the results depend on the processing

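The differences in width and in sharing kept their sign when each animal was left out, at -35.3 to -33.7 bases and 8.26 to 11.04 points, and under the other settings tried, except that the difference in sharing was -2.92 points against coding peaks starting at base 2 to 50. Against other coding peaks on the 10-base grid the differences were -17.8 bases and 24.9 points. In genes with 1 peak in each list sharing differed by 16.6 points. The rule fixes the first base and so may bear on the width under every one of these settings. A kept sign of the width difference does not remove that limit. The base 2 to 50 setting, the one of peaks on the 10-base grid and the share within the first 50 bases were chosen with the data in view. The difference in the number of peaks, -7, turned to 55 with starts up to base 50, and leaving out 1 animal gave -39 to 25, with 2 without Jinhua 1 and 25 without Landrace 1. With 1 animal left out, the breed difference in the share of coding peaks ranged from -2.01 to -0.386 points and that in the share within the first 50 bases from -9.69 to -3.92. In genes with 1 peak in each list these differences were -2.81 and -10.61 points. With starts up to base 50 the first was -0.197 points, and within the first 20 bases the second was -2.95 points with exact permutation p = 0.667. Genes shared by all lists numbered 115, 197 counting any overlapping peak, 59 in genes with 1 peak in each list, and 129 to 143 without 1 animal, where fewer lists must agree. Jinhua-only genes numbered 15 and Landrace-only genes 9 where absence meant no peak of the gene. The Landrace-only count was 13 where absence meant no overlapping peak. No matching shares over all genes were counted for these. The cause was not tested. The labels number the animals of each breed, but nothing says that equal numbers pair them. With a replicate block the differences were -7 peaks, -1.20 points and -6.81 points, with exact permutation p = 1, 0.5 and 0.5, and 0.5 is the smallest that 2 pairs allow. Between breeds of 2 animals the smallest exact permutation p is 0.333. A stricter peak threshold was not run, because the lists hold no enrichment or p-value.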
